A study of Homo sapiens with 8 samples.

Results

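The mRNAs of the cytosolic ribosomal proteins were followed in 8 RNA-seq libraries of cholangiocarcinoma (CCA) cells. Members were the protein-coding genes named RPL or RPS with a number, with an optional A, X or L, together with RPSA and the stalk proteins RPLP0, RPLP1 and RPLP2. Of 56269 genes listed, 81 had such a name, and the 79 that reached 1 TPM in at least 2 libraries were analysed, 47 of the large subunit and 32 of the small subunit. The remaining name matches were RPL10L, listed at 0 in every library, and RPL3L, which did not pass 0.60 TPM. The lowest member kept was RPL39L, at 20.1 to 64.6 TPM.

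The libraries came from SNU1079 and SSP25, both CCA cell lines that the labels give as wildtype in genotype. The study's own sequencing of cancer genes nevertheless found IDH1 and ARID1A mutations in SNU1079. Each line was treated for 48 h with vehicle (0.01% DMSO), BETp, mTORi or BETp + mTORi, whose doses the labels do not give. Given alone, BETp was ARV825 at 40 nM, a degrader that brings BET proteins to cereblon. Given alone, mTORi was AZD8055 at 50 nM, an inhibitor aimed at mTOR in both of its complexes. The paper reports that AZD8055 lowered phosphorylated S6 in both lines. It saw no effect on other phosphorylated proteins of the pathway, S6K1 and AKT among them. There was 1 library per line and treatment, so for the drugs the lines stood as replicates of each other. Between the lines, the differently treated libraries of each line stood as replicates, and no culture was repeated. The lines were also deposited apart, so a difference in processing cannot be told from a difference between lines. All p-values measure only the spread between these libraries. Values were TPM, transcript abundances corrected for mRNA length and library total, and the number of reads behind a TPM value is unknown.

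Of 7 biliary markers, all 7 reached 1 TPM in SNU1079 (summed 7592 to 10611 TPM) and 6 in SSP25 (summed 1915 to 2390 TPM). The 5 hepatocyte markers summed to 3.70 TPM at most, with ALB at or near 0. Of 4 fibroblast markers COL1A1 alone reached 1 TPM in SNU1079, at 1003, 546, 599 and 272 TPM with vehicle, BETp, mTORi and BETp + mTORi, and the 4 summed to 10.7 to 26.5 TPM in SSP25. COL1A2 and DCN stayed below 1 TPM throughout. Of 3 leukocyte markers CD68 alone reached 1 TPM (76.4 to 210 TPM). Of the biliary markers, KRT8 (-0.38 ± 0.06, limma adjusted p = 0.0428) and KRT18 (-0.51 ± 0.09, limma adjusted p = 0.0488) were called lower under mTORi, and EPCAM (-0.57 ± 0.10, limma adjusted p = 0.0403) under BETp, each drug's effect averaged over the other drug. The part of these markers in the results on ribosomal protein genes was not tested. Between 13308 and 14526 genes reached 1 TPM per library, and mRNAs of the mitochondrial genome took 14.4 to 19.2% of the TPM total in SNU1079 and 5.99 to 10.1% in SSP25.

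A ribosome needs its proteins in equal amounts, most of them as a single copy, and the genes that encode them lie scattered over the genome. Their mRNAs begin with a cytosine followed by an unbroken run of pyrimidines, the terminal oligopyrimidine or TOP motif, through which mTOR controls how well they are translated and to which the RNA-binding protein LARP1 attaches. mRNA level therefore reports supply of the template and not how much protein is made from it. A few members, such as RPL39L and RPS27L, are paralogs that can take the place of the usual protein.

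The starts of members on which the comparisons turn are shown 5′ to 3′ on the strand with the sense of the mRNA. Each holds 10 bases before and 20 bases from the annotated start of the canonical transcript (GENCODE 44 on GRCh37). Capitals mark the unbroken run of C and T from that start. RPL23, RPL13 and RPL31 stood highest under mTORi.
RPL23: ttcttttttcCggcgttcaagatgtcgaag
RPL13: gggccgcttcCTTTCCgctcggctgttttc
RPL31: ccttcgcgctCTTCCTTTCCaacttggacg
RPSA, RPS2, RPL35 and RPS26 stood low among the members under mTORi.
RPSA: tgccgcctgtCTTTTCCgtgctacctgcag
RPS2: aggtctcgttCTTCTTTTCCgacaaaacac
RPL35: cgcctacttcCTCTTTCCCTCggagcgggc
RPS26: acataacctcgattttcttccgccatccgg
RPL39 and RPS27 are shown with their paralogs, which were the least abundant members.
RPL39: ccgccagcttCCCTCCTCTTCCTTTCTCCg
RPL39L: cggggaaatcgcggtcttagcatccggcgc
RPS27: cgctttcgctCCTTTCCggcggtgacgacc
RPS27L: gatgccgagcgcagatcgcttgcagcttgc
RPS3 had the largest difference between the lines.
RPS3: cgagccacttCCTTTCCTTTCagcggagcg
The windows lie at chr17:37009955-37009984 on the minus strand (RPL23), chr16:89627080-89627109 on the plus strand (RPL13) and chr2:101618741-101618770 on the plus strand (RPL31). Those of the second set lie at chr3:39448201-39448230 (RPSA, plus), chr16:2014808-2014837 (RPS2, minus), chr9:127624217-127624246 (RPL35, minus) and chr12:56435692-56435721 (RPS26, plus). The paralog pairs lie at chrX:118925574-118925603 (RPL39, minus), chr3:186857265-186857294 (RPL39L, minus), chr1:153963228-153963257 (RPS27, plus) and chr15:63449657-63449686 (RPS27L, minus), and RPS3 at chr11:75110552-75110581 (plus). Each window joins 10 bases of promoter to the first bases of the transcript. RPL39 opened with the 19 pyrimidines seen above and RPS27 with 7, whereas RPL39L and RPS27L opened with a G. Over all name matches, RPL10L and RPL3L included, 58 of 81 annotated starts (71.6%) had a C followed by pyrimidines to a run of at least 5. Among protein-coding starts 913 of 19894 did (4.59%). Annotated starts can miss the used start by some bases, as where a pyrimidine tract lies just upstream in RPL23, so a missing run says only that these letters were not at this position.

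In SNU1079, large subunit mRNAs took 8.92 to 11.9% of the TPM total and small subunit mRNAs 7.93 to 10.0%. In SSP25 the large subunit took 7.25 to 8.98% and the small subunit 4.49 to 5.37%. The members' share was thus higher in SNU1079 than in SSP25 for either subunit, and within each line both subunits were lowest with BETp and highest with mTORi. The ratio of summed large to summed small subunit TPM was 1.12 to 1.19 in SNU1079 and 1.60 to 1.67 in SSP25. Without RPS3 these ratios were 1.32 to 1.39 and 1.66 to 1.74, so RPS3 alone made up part of the gap between the lines. The median member lay between 1692 and 2296 TPM in SNU1079 and between 1299 and 1594 TPM in SSP25, and RPS27L and RPL39L were the 2 lowest in every library, RPL39L far below the rest.

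**Figure D1:**
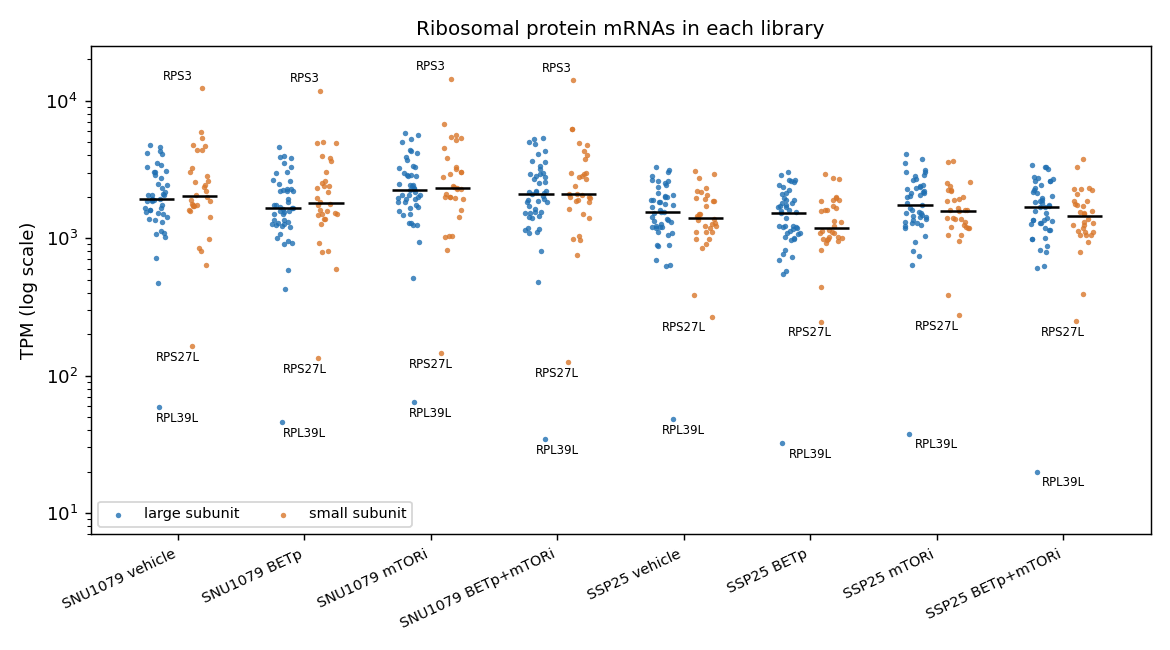
TPM of the 79 members (log axis) in each of 8 libraries, with 47 large subunit mRNAs in blue and 32 small subunit mRNAs in orange, 1 point per gene and a bar at the median. RPS3 lies above all other members in the 4 SNU1079 libraries, at 11791 to 14489 TPM, and RPS27L and RPL39L lie lowest in all 8 libraries.

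Under mTORi, ribosomal protein mRNAs stood higher relative to the rest of the transcriptome. In a limma model of cell line, BETp and mTORi on log2(TPM + 1), which averages the mTORi effect over BETp, 13 of 79 members were called higher and 0 lower (Benjamini-Hochberg adjusted p under 0.05), where 0.162% of the 16060 genes tested were called higher and 0.884% lower. At an unadjusted p under 0.05, 61 members were higher and 1 lower, against 2.67% and 19.3% of all genes. Of the 13, 12 encode large subunit proteins (among them RPL23, RPL13, RPL31, RPL10, RPL28, RPL37, RPL4, RPL37A, RPL29, RPL10A and RPL23A) and RPS25 belongs to the small subunit. These 13 made up 50% of all 26 genes called higher. The median member changed by 0.21 on the log2 scale against -0.11 over all genes tested, 69 members were higher in both lines, and 3 were lower in both. In 41 members both mTORi-treated libraries lay above both others within each line, against 1.77% of all genes. The reverse held in 0 members, against 13.3% of all genes. Bulk libraries give shares of the RNA of a culture, so fewer cells that express a gene and less of its RNA per cell cannot be told apart.

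The highest was RPL23, a large subunit protein that can bind MDM2. It measured 2332, 2282, 2900 and 3157 TPM with vehicle, BETp, mTORi and BETp + mTORi in SNU1079, and 1211, 1217, 1472 and 1587 TPM in SSP25. The libraries with mTORi lay above those without it in both lines, with no overlap within a line. The log2 change was 0.36 ± 0.05 (SE, limma adjusted p = 0.0428). RPL13 measured 4146, 3830, 5028 and 5012 TPM in SNU1079 and 1885, 1960, 2394 and 2587 TPM in SSP25, again without overlap within a line (0.35 ± 0.06, limma adjusted p = 0.0428). RPL31, which lines the rim of the exit tunnel, rose by 0.34 ± 0.06 on the log2 scale and RPL10, which completes the maturing large subunit, by 0.33 ± 0.05, both with a limma adjusted p of 0.0428. The rises among the 13 called members ran from 0.31 to 0.36, or 1.24-fold to 1.28-fold.

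**Figure D2:**
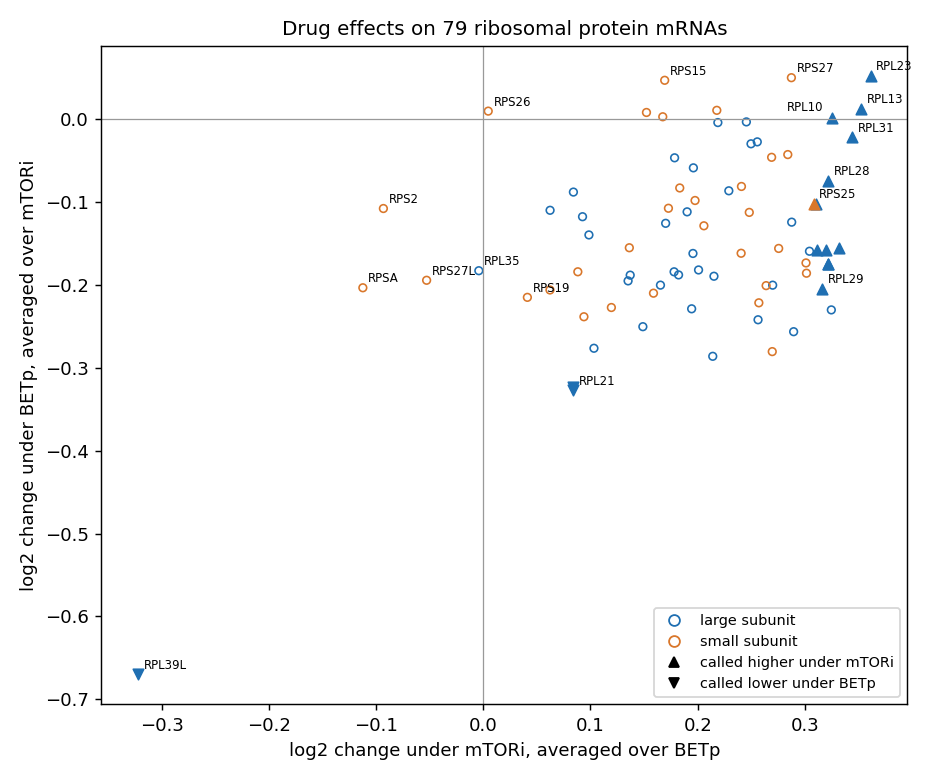
Fitted log2 change of each of the 79 members under mTORi (horizontal) and under BETp (vertical), with the large subunit in blue and the small subunit in orange, upward triangles for members called higher under mTORi and downward triangles for members called lower under BETp. Most members lie right of 0 and below 0, RPL23 lies farthest right at 0.36, and RPL39L lies apart at -0.32 under mTORi and -0.67 under BETp.

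These calls were narrow ones. With any of the 8 libraries left out, 0 members were called (44 to 60 at an unadjusted p under 0.05), as also with quantile normalization (34), and quantile normalization lowered the median member to 0.09. When all libraries were instead set to an equal median of all tested genes, the median member changed by 0.34 and 31 were called, among them all 13. With the mitochondrial genome left out of the total, 10 were called, all of them among the 13, and the median member changed by 0.24. The mitochondrial share was higher with mTORi than without it in every pair, at 15.3 against 14.4% and 19.2 against 17.1% in SNU1079 and 8.64 against 5.99% and 10.1 against 7.22% in SSP25.

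RPS6, whose protein is phosphorylated downstream of mTOR, measured 1595, 1375, 2098 and 1893 TPM in SNU1079 and 2296, 1983, 2511 and 2309 TPM in SSP25, in the same order of treatments. Libraries with mTORi lay above those without it in both lines, narrowly so in SSP25, and the change was 0.30 ± 0.07 (limma adjusted p = 0.0658, not called). It had the smallest adjusted p of any member for a difference between the lines in the mTORi effect, 0.43 in SNU1079 against 0.17 in SSP25, a difference of 0.25 ± 0.07 (limma adjusted p = 0.267). RPS3A followed with 0.37 against 0.14 (difference 0.23 ± 0.07, limma adjusted p = 0.279). No member was called in that comparison, where 0% of all genes were, although 10 members passed an unadjusted p under 0.05, all with the larger effect in SNU1079, where 14.2% of all genes passed in either direction and 5.76% in that direction.

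RPL5 and RPL11, which join the 5S rRNA and restrain MDM2 when ribosome assembly fails, changed by 0.14 ± 0.06 and 0.14 ± 0.05 under mTORi and were not called. Of the stalk proteins, which recruit translation factors to the large subunit, RPLP2 measured 0.26 ± 0.05 and RPLP1 0.18 ± 0.06, while RPLP0, to which they are anchored, measured 0.06 ± 0.06. Its values were 0.15 in SNU1079 and -0.03 in SSP25. RPL3, close to the peptidyl transferase centre, measured 0.27 ± 0.05, RPS4X 0.24 ± 0.07 and RPL41, the smallest ribosomal protein, 0.08 ± 0.06. None of these passed the test. RPL3 and RPLP2 came closest (limma adjusted p = 0.0566 and 0.0567), and RPLP0 and RPL41 lay far from it (0.596 and 0.452).

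RPL39L, RPSA, RPS2 and RPS27L were the members with the lowest fitted mTORi effect, at -0.32 ± 0.12, -0.11 ± 0.05, -0.09 ± 0.06 and -0.05 ± 0.06. None was called lower, and RPSA and RPS2 turned slightly positive (0.02 and 0.04) with an equal median of all genes. To ask which members moved apart from the others, each library was shifted so that its median member was equal. Relative to the median member, 7 members were lower under mTORi and 0 higher (13 and 1 at an unadjusted p under 0.05), namely RPL39L and RPL35 of the large subunit and RPSA, RPS2, RPS27L, RPS26 and RPS19 of the small subunit. On this scale 44.8% of all genes were called lower and 0.212% higher, and the median over all genes was -0.34, beside which RPSA and RPS2 lay.

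RPSA, a small subunit protein also known as the laminin receptor, measured 1738, 1472, 1605 and 1407 TPM in SNU1079 and 989, 915, 952 and 788 TPM in SSP25. The libraries with mTORi overlapped those without it in both lines, whereas the median member was higher with mTORi. Relative to the median member RPSA fell by 0.34 on the log2 scale (SE 0.07, limma adjusted p = 0.00893). RPS2, which lies at the entry of the mRNA channel, measured 5389, 4926, 5339 and 4898 TPM in SNU1079 and 2728, 2734, 2576 and 2270 TPM in SSP25. With mTORi its SSP25 libraries lay below both others, those of SNU1079 overlapped, and it fell by 0.32 (SE 0.07, limma adjusted p = 0.0108) relative to the median member. RPS27L, which p53 induces, fell by 0.28 on that scale, RPL35 by 0.23, RPS26 by 0.22 and RPS19, a gene mutated in Diamond-Blackfan anaemia, by 0.19, with limma adjusted p-values of 0.0249 to 0.0413. These calls numbered 0 with quantile normalization (17 at an unadjusted p under 0.05) and 3 without any 1 of the SNU1079 libraries, the SSP25 BETp library or the SSP25 BETp + mTORi library.

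**Figure D3:**
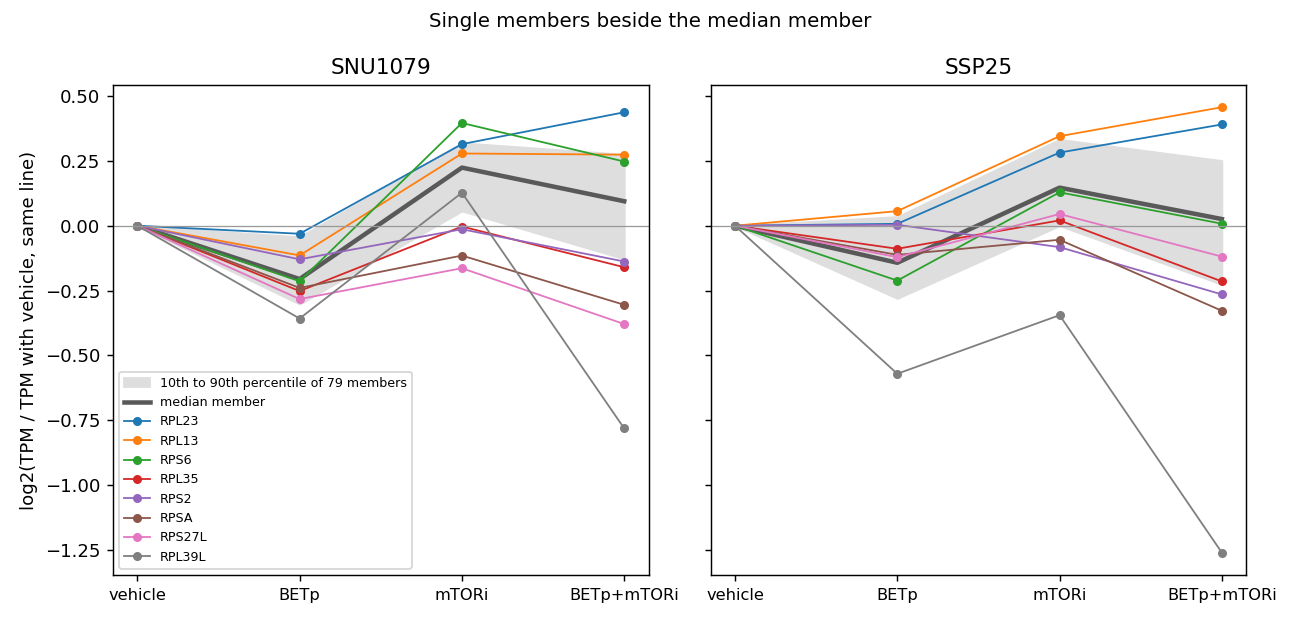
log2 ratio of TPM to the vehicle library of the same line (vertical) for each treatment, SNU1079 on the left and SSP25 on the right, for 8 single members, with the median member as a thick line and the 10th to 90th percentile of the 79 members as a grey band. RPL23 and RPL13 lie above the median member with BETp + mTORi, RPSA, RPS2, RPL35 and RPS27L below it, and RPL39L lies lowest in both lines.

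Under BETp, ribosomal protein mRNAs stood slightly lower. Averaged over mTORi, 3 of 79 members were called lower and 0 higher, where 1.36% of all genes were called lower and 0.461% higher. All 3, RPL39L, RPL21 and RPL6, are large subunit genes, and 45 members were lower and 0 higher at an unadjusted p under 0.05, against 17.2% and 5.65% of all genes. The median member changed by -0.16 against -0.08 over all genes, and 64 members were lower in both lines and 2 higher in both. In 19 members both BETp-treated libraries lay below both others within each line, against 9.82% of all genes, and the reverse held in 0 members, against 4.27%. With the mitochondrial genome left out of the total, whose share was higher with BETp in both lines, 1 member was called lower and the median was -0.12. With an equal median of all genes 0 were called (12 at an unadjusted p under 0.05) and the median member changed by -0.061. With no filter on low values (36), robust eBayes (27) or quantile normalization (26), 0 were called as well.

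RPL21 measured 1355, 1063, 1480 and 1160 TPM in SNU1079 with vehicle, BETp, mTORi and BETp + mTORi, and 1200, 978, 1243 and 999 TPM in SSP25. Its libraries with BETp lay below those without it in both lines, and it fell by 0.33 on the log2 scale (SE 0.05, limma adjusted p = 0.0324). RPL6 measured 1602, 1264, 1833 and 1418 TPM in SNU1079 and 1214, 1012, 1227 and 984 TPM in SSP25, without overlap, and fell by 0.32 (SE 0.06, limma adjusted p = 0.0446). RPL23, RPS27 and RPS15 had the highest fitted changes, each of 0.05 ± 0.05 or 0.05 ± 0.06, and were not called. RPS15 turned to -0.00073 without the SSP25 library treated with BETp. With a single library left out, 0 or 1 members were called lower (35 to 47 members at an unadjusted p under 0.05), the 1 call without the SNU1079 vehicle library, and relative to the median member 0 of 79 were called (9 at an unadjusted p under 0.05), where 0.816% of all genes were.

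RPL39L had the lowest fitted change of all members under either drug. Relative to the median member it was called lower under mTORi and not under BETp (-0.53, limma adjusted p = 0.0937), and with mTORi alone it measured 0.13 on the log2 scale in SNU1079 and -0.34 in SSP25. It is a paralog of RPL39, a small protein of the exit tunnel, and is best known from male germ cells. RPL39L measured 59.2, 46.2, 64.6 and 34.4 TPM in SNU1079 and 48.0, 32.4, 37.8 and 20.1 TPM in SSP25. The libraries with BETp lay below those without it in both lines, and the lowest value of each line was that with BETp + mTORi. It fell by 0.67 under BETp (SE 0.12, limma adjusted p = 0.0434) and by 0.99 with the combination against vehicle (SE 0.14, limma adjusted p = 0.0393), a fold of 0.503. RPL39 itself was among the most abundant members, at 4795, 4613, 5600 and 5315 TPM in SNU1079 and 3127, 3019, 3542 and 3411 TPM in SSP25. It changed by -0.06 ± 0.05 under BETp and 0.20 ± 0.05 under mTORi, and was called under neither. RPL39P3, listed as a pseudogene of RPL39, measured 324, 169, 221 and 108 TPM in SNU1079 and at most 20.6 TPM in SSP25, and whether reads were split between such near-identical copies is not known.

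In the other paralog pair, RPS27 measured 4724, 4934, 5610 and 6190 TPM in SNU1079 and 3069, 2909, 3558 and 3737 TPM in SSP25. RPS27L measured 164, 135, 146 and 126 TPM in SNU1079 and 269, 247, 277 and 248 TPM in SSP25. RPS27 was highest with BETp + mTORi in both lines, whereas RPS27L was lower with BETp + mTORi than with vehicle in both. Their changes with the combination were 0.34 ± 0.08 and -0.25 ± 0.10, and neither was called (limma adjusted p = 0.0725 and 0.174).

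With the combination against vehicle, the median member lay between its levels under the single drugs in both lines. In the limma model of cell line and 4 treatments, RPL39L was the only member called (1 of 79 lower, 0 higher), where 1.52% of all genes were called lower and 0.293% higher, and 14 members were higher and 5 lower at an unadjusted p under 0.05, against 3.35% and 22.5% of all genes. The median member changed by 0.08 against -0.19 over all genes, with 41 members higher and 20 lower in both lines. This median was 0.043 without the SNU1079 vehicle library, 0.019 without the SNU1079 combination library, 0.00290 with quantile normalization and 0.31 with an equal median of all genes. RPL23, RPL13 and RPS27 stood highest, at 0.41 ± 0.08, 0.37 ± 0.09 and 0.34 ± 0.08 (limma adjusted p of 0.0524 to 0.0725), and RPSA stood low at -0.32 ± 0.08 (adjusted p = 0.0836). None of these 4 was called. The RPL39L call was lost without either vehicle library, either BETp library or either combination library.

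For each drug alone against vehicle, where each group held 2 libraries, 0 members were called. Under BETp alone 27 members were lower and 0 higher at an unadjusted p under 0.05, against 6.5% and 2.4% of all genes, and 0.00623% of all genes were called. Under mTORi alone 36 members were higher and 0 lower, against 1.58% and 8.75% of all genes, and 0.0125% of all genes were called. The median member changed by -0.18 and 0.19, so the directions were those of the averaged effects. Departure from additivity, by which the change with the combination exceeds the added changes of BETp alone and mTORi alone, had 0 of 79 members called and 0 at an unadjusted p under 0.05, where 0% of all genes were called. Its median was 0.04, and RPL39L (-0.43 ± 0.20) and RPL12 (0.15 ± 0.12) came first, both with a limma adjusted p of 1.00. For the BETp effect, 0 of 79 members were called as different between the lines and 0 passed an unadjusted p under 0.05, where 0.00623% of all genes were called. RPS26 (-0.20 ± 0.09, limma adjusted p = 0.441) and RPS23 (0.16 ± 0.07, limma adjusted p = 0.462) had the smallest adjusted p.

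The medians of the subunits were close under the drugs, and the difference between the subunits was not tested. Under mTORi the median large subunit member changed by 0.22 and the median small subunit member by 0.19, and under BETp by -0.16 and -0.14. With the combination the medians were 0.07 and 0.08. The calls were split less evenly, with 12 of 13 higher calls under mTORi in the large subunit and 5 of the 7 members below the median member in the small subunit. At an unadjusted limma p under 0.05 the split under mTORi was milder. There 38 of 47 large and 23 of 32 small subunit members were higher, against 2.67% of all genes.

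The lines differed far more than the treatments. In SNU1079 against SSP25, 58 of 79 members were called higher and 17 lower, where 39.1% of all genes were called higher and 36.6% lower. The members not called included RPL4, RPL36A and RPL8. The libraries of the lines did not overlap in 51 members that were higher in SNU1079 and 11 that were lower, against 32.6% and 30.8% of all genes. The median member differed by 0.63 on the log2 scale against 0.05 over all genes. Members did not shift as a block, since differences ran from -0.92 to 2.86 with an SD between members of 0.65, and libraries of the same line shared their order of members (correlations of 0.980 to 0.996 over the 79 members) more than libraries of different lines (0.781 to 0.814). The median was 0.47 for the large and 0.70 for the small subunit. Relative to the median member, 41 members were called higher in SNU1079 and 25 lower, where 23.7% and 51.4% of all genes were.

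RPS3, which helps form the mRNA entry channel of the small subunit and also has a role in DNA repair, was the most abundant member in SNU1079 and an ordinary one in SSP25. It measured 12323, 11791, 14489 and 14144 TPM in SNU1079 and 1848, 1660, 1994 and 1761 TPM in SSP25 with vehicle, BETp, mTORi and BETp + mTORi. The groups did not overlap, and RPS3 ranked 1st among members in every SNU1079 library and 28th to 31st in SSP25. The difference was 2.86 ± 0.06 (limma adjusted p = 9.14e-09), or 7.25-fold.

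RPS29, a zinc-binding protein of the small subunit head, measured 4406, 3950, 5430 and 4760 TPM in SNU1079 and 1418, 1114, 1594 and 1540 TPM in SSP25 (1.71 ± 0.06, limma adjusted p = 1.21e-07). RPS24, another gene mutated in Diamond-Blackfan anaemia, differed by 1.32 ± 0.06, RPS26 by 1.29 ± 0.07 and RPL36 by 1.25 ± 0.05. All 5 members at this end had no overlap between the lines, and 4 of them belong to the small subunit.

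At the other end, RPL27A measured 1867, 1489, 1938 and 1710 TPM in SNU1079 and 3312, 2665, 4097 and 3271 TPM in SSP25, where it ranked 1st to 6th among members (-0.92 ± 0.06, limma adjusted p = 2.87e-06). The stalk proteins split. RPLP2 (-0.88 ± 0.05) and RPLP1 (-0.74 ± 0.06) were lower in SNU1079, and RPLP0 (0.77 ± 0.06) was higher. RPS27L (-0.87 ± 0.06), RPL37 (-0.67 ± 0.05), RPL11 (-0.50 ± 0.05), RPS6 (-0.40 ± 0.07) and RPL5 (-0.24 ± 0.06) were also lower in SNU1079, and RPS27 (0.69 ± 0.05), RPSA (0.77 ± 0.05), RPL3 (0.78 ± 0.05) and RPL39 (0.63 ± 0.05) higher. RPS4X was lower in SNU1079 (-0.44 ± 0.07), and RPL41 (0.47 ± 0.06), RPL10 (0.39 ± 0.05) and RPL39L (0.58 ± 0.12) were higher.

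**Figure D4:**
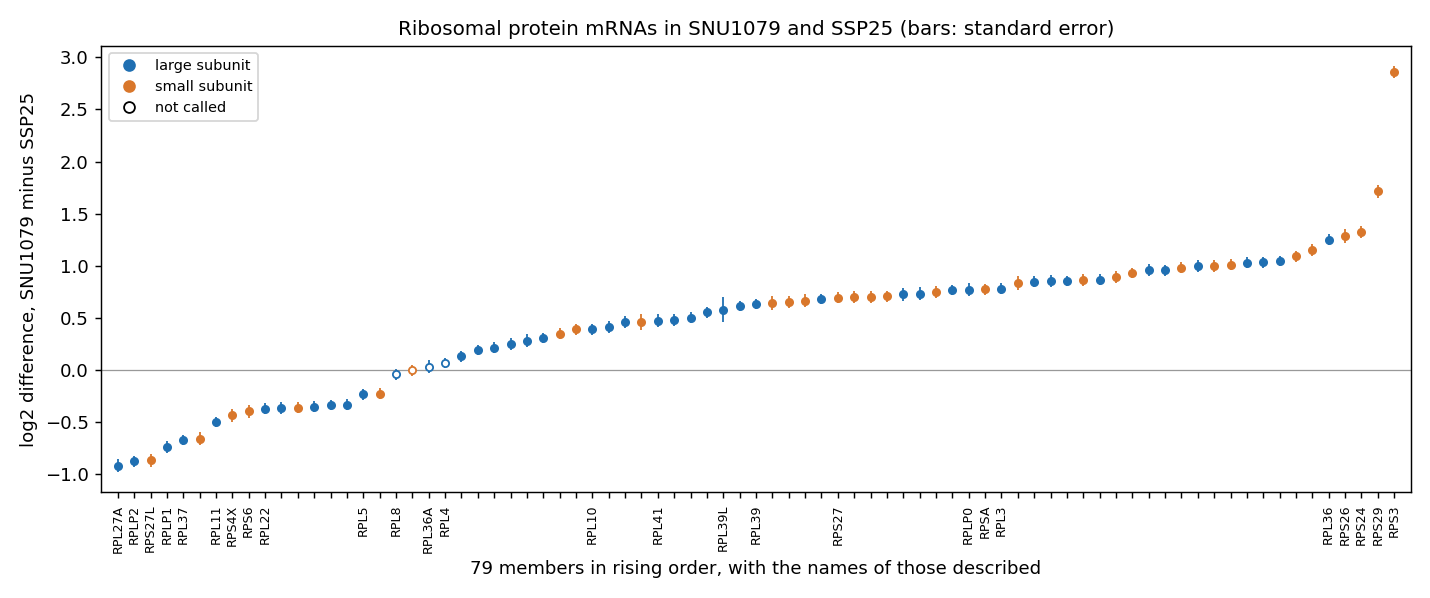
Fitted log2 difference of each member between SNU1079 and SSP25 (above 0, higher in SNU1079) in rising order, with standard errors as bars, the large subunit in blue, the small subunit in orange, open points for the 4 members not called and the names of the members described. Most members lie above 0, and RPS3 lies alone at 2.86.

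The line differences of members were set beside those of the genes next to them. Across 77 members with at least 5 tested neighbours within 1 Mb (other RPL and RPS names left out), Spearman's rho between the member's difference and the median difference of its neighbours was 0.74, and 0.73 without RPS3. Over 11949 other tested genes rho was 0.39, and over 482 of the most abundant other genes 0.54. Members that lie near each other share neighbours, all values come from the same 8 libraries, and no test was made. RPL27A differed by -0.92 and the median of its 15 neighbours by -1.09. RPLP2 differed by -0.88 beside -1.32 for 42 neighbours, RPL37 by -0.67 beside -1.03 for 5, and RPLP1 by -0.74 beside -0.72 for 5. RPS29 (1.71 beside 0.15 for 16 neighbours), RPS24 (1.32 beside 0.05 for 5) and RPS3 (2.86 beside 1.74 for 14) stood well above theirs. In 60 of the 77 members the difference had the same sign as the neighbours' median and in 17 the opposite sign, as in RPL12 (0.28 beside -1.01 for 35), RPL3 (0.78 beside -0.38 for 25) and RPS18 (0.93 beside -0.33 for 36).

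Around RPS3 (chromosome 11, 75110559 to 75133324 on GRCh37), 14 neighbours were tested, with a median difference of 1.74. Of these, 11 were called higher in SNU1079 and 3 lower (SPCS2, SLCO2B1 and KLHL35). SERPINH1, the collagen chaperone, stood at 264 to 408 TPM in SNU1079 and 7.86 to 16.7 TPM in SSP25, a difference of 4.69, and NEU3 differed by 2.61 and RNF169 by 2.45. RPS3 thus lay in a stretch of genes that were mostly higher in SNU1079, and its own difference of 2.86 was above their median. DNA copy number was not measured in these libraries, and its part was not tested.

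**Figure D5:**
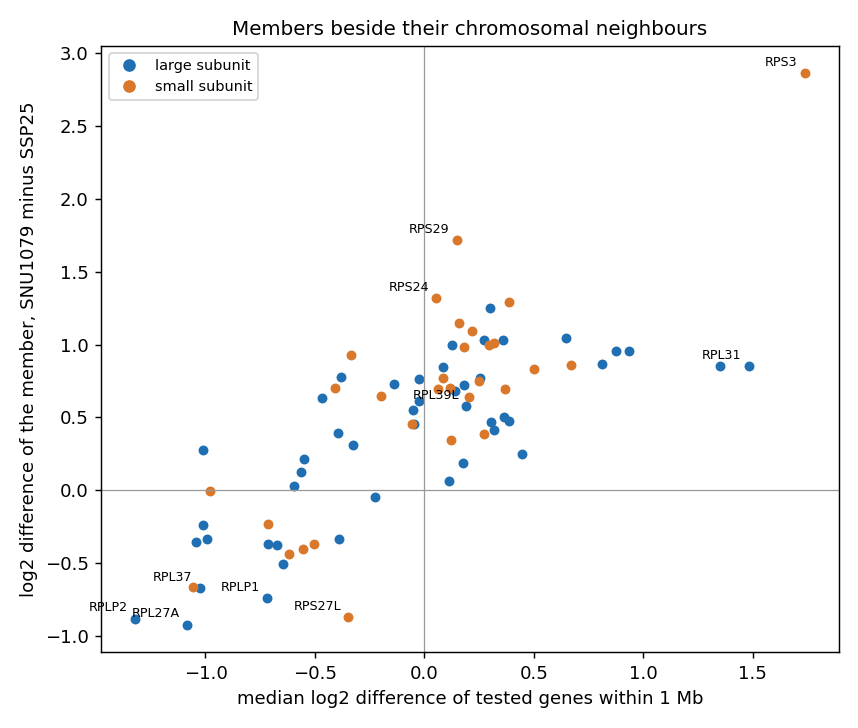
log2 difference between SNU1079 and SSP25 of 77 members (vertical) beside the median difference of the tested genes within 1 Mb (horizontal), large subunit in blue and small subunit in orange. Points rise from RPLP2 and RPL27A at the lower left to RPS3 at the upper right, with a Spearman's rho of 0.74, and RPS29 and RPS24 lie above the trend.

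Members with and without a pyrimidine run at the annotated start had close medians under the drugs. Under mTORi the median change was 0.20 over the 58 tested members with a run and 0.22 over the 21 without, and under BETp -0.16 in both. Of the 13 members called higher under mTORi, 8 had a run, and RPSA, RPS2 and RPL35, which stood low, had one as the sequences above show. Canonical mRNAs ran from 295 to 7573 bases and from 40.1 to 63.6% GC. Across the 79 members the mTORi change had a Spearman's rho of 0.20 with mRNA length, -0.03 with GC content and 0.16 with mean TPM, and the BETp change -0.08, 0.26 and 0.22. These are descriptions over genes that share the same 8 libraries.

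Processed copies of ribosomal protein genes are common in the human genome. The tables held 1002 rows named as pseudogenes of 75 members, which together reached 0.689 to 1.14% of the members' TPM. Only RPL9 had pseudogene rows at 10% or more of its own value, from 45.2 to 64.4%, nearly all of it RPL9P9 at 555 to 832 TPM. RPS2P5 (283 to 291 TPM in SNU1079, 3.27 to 5.29 in SSP25) and RPL13P12 (243 to 334 and 1.51 to 2.75 TPM) were high in SNU1079 alone. When pseudogene values were added to the parent gene, 13 members were still called higher under mTORi, all 13 of them the same, and 4 lower under BETp, among them the same 3.

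Ribosomal protein genes outside the naming rule (among them FAU, RACK1, RPL22L1, RPL26L1, RPL36AL and RPL7L1) were also measured. Of the 7, 0 were called under mTORi (2 lower at an unadjusted p under 0.05), BETp (4 lower) or the combination (2 lower). In the same order, 19.3%, 17.2% and 22.5% of all genes were lower at that p, and 0.884%, 1.36% and 1.52% were called lower. The medians of the 7 were -0.06 under mTORi, -0.17 under BETp and -0.14 with the combination. RACK1, a scaffold of the small subunit, measured 0.14 ± 0.07 under mTORi. Between the lines 6 were called higher in SNU1079 and 0 lower, where 39.1% and 36.6% of all genes were. RPL22L1, the paralog of RPL22, stood at 158 to 264 TPM in SNU1079 and 24.2 to 36.7 TPM in SSP25 (2.92 ± 0.12, limma adjusted p = 2.54e-07). RPL22 itself was lower in SNU1079 (-0.37 ± 0.05).

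Of 14 chaperones and regulators of ribosomal proteins, 0 were called under mTORi (3 lower at an unadjusted p under 0.05), BETp (5 lower) or the combination (8 lower). Their medians were -0.14, -0.15 and -0.33, and 6 were higher and 3 lower in SNU1079, where 39.1% and 36.6% of all genes were. Of all genes 19.3% were lower at an unadjusted p under 0.05 under mTORi, 17.2% under BETp and 22.5% with the combination. LARP1 measured -0.12 ± 0.07 under mTORi, and BCCIP, which carries RPL23 to the ribosome, -0.26 ± 0.06 (limma adjusted p = 0.0796). BCCIP did not stand out, since other genes of the list were lower under mTORi with smaller adjusted p. TSR2, the chaperone of RPS26, stood at 12.8 to 16.1 TPM in SNU1079 and 76.3 to 83.1 TPM in SSP25, a difference of -2.42 ± 0.08 (limma adjusted p = 7.44e-08). RPS26 went the opposite way, at 917 to 1034 TPM in SNU1079 and 385 to 438 TPM in SSP25.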

How the data were processed

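RNA-seq of 8 libraries was deposited by the authors as 1 TPM table per cell line, with 56269 gene symbols and no counts. The labels name GRCh37, and the submitters' processing notes list DESeq2 and edgeR. Neither the aligner nor the annotation used for counting is given in the sources used here. Libraries were strand-specific. The tables held no columns of the authors' own comparisons, and 0 other per-sample columns.

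The 16060 genes that reached 1 TPM in 2 libraries or more were fitted on log2(TPM + 1) with limma 3.58.1 in R 4.3.3 (eBayes with an intensity trend, two-sided, Benjamini-Hochberg adjustment over all genes, called at 0.05). Because of the added 1, changes of low genes are understated on this scale, and errors are standard errors. For the averaged effects, the terms were line, presence of BETp and presence of mTORi, leaving 4 residual degrees of freedom. Effects against vehicle and additivity came from a model of line and treatment with 3, and differences between the lines in a drug's effect from a line-by-drug model with 2. Libraries were paired by line in these models. With treatment means removed, residuals of libraries of the same line correlated at 0.911 to 0.936. Each treatment had 1 library per line, so this value only restates that the lines differ. For changes relative to the median member, each library was shifted so that its median member was equal. Scripts were tested on simulated data.

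The members and lists (proteins outside the naming rule, chaperones and regulators, and biliary, hepatocyte, fibroblast and leukocyte markers) were chosen with earlier results of these data known. Named with statistics were the 3 highest and 3 lowest members per drug comparison, the 5 highest and 5 lowest between the lines, every member called relative to the median member, the 2 of smallest adjusted p for additivity and line differences, and members named for their role. The other members called, RPL22, RPS18, neighbours of RPS3, and the list genes and pseudogenes given with values were chosen after their values were seen. A few genes of the lists and members counted here are not reported by name.

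Transcript starts, lengths and neighbours came from GENCODE 44 on GRCh37, which matched 33174 of 56269 symbols and 81 of 81 member names. Alternatives were another pseudocount, other filters, quantile normalization, totals without the mitochondrial genome, robust eBayes without a trend, no block for line, pseudogenes added to parents, members without paralogs, means for medians, and each library left out. An equal median of all genes, totals without RPS3 and a wider window of neighbours were added after seeing the data.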

Additional observations from a re-analysis of the deposited data

How the results depend on the processing

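The calls under the drugs depended on the processing, and the cause was not tested. The 13 calls under mTORi numbered 0 with a pseudocount of 0.1 (62 members at an unadjusted p under 0.05), with no filter on low values (55), with quantile normalization (34) and with robust eBayes (45), and 31 with a filter at 5 TPM or an equal median of all genes, including the same 13 each time. Leaving out 1 library gave 0 to 0 calls. The 3 calls under BETp numbered 1 with a pseudocount of 0.1 or without the mitochondrial genome, 0 with no filter (36), quantile normalization (26), robust eBayes (27) or an equal median (12), 8 with a filter at 5 TPM, including the same 3, and 0 to 1 with 1 library left out. The single call with the combination numbered 0 with a pseudocount of 0.1 (19), no filter (12), quantile normalization (16), robust eBayes (7) or without the mitochondrial genome (32), 3 with a filter at 5 TPM, and 0 to 1 with 1 library left out. The 7 members below the median member under mTORi numbered 0 with quantile normalization, 3 with robust eBayes and 3 to 7 with 1 library left out.

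The fit without the replicate block, in which libraries were not paired by line, called 0 members under mTORi (0 at an unadjusted p under 0.05), BETp (1) and the combination (0), and 0 relative to the median member (1).

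Median members kept their direction under mTORi (0.091 with quantile normalization, 0.34 with an equal median, 0.19 to 0.23 with 1 library left out), under BETp (-0.11, -0.061 and -0.17 to -0.13, and -0.12 without the mitochondrial genome), under mTORi alone (0.082 with quantile normalization, 0.16 to 0.21 with 1 library left out) and under BETp alone (-0.12 and -0.21 to -0.13). With the combination the median was 0.00290 with quantile normalization, 0.15 without the mitochondrial genome, 0.31 with an equal median and 0.019 to 0.10 with 1 library left out. Between the lines it was 0.46 with quantile normalization and 0.77 without the mitochondrial genome, and leaving out 1 library gave 0.61 to 0.65 with 74 to 75 calls. With 1 library left out the median for additivity was -0.0078 to 0.082, for the line difference in the BETp effect -0.05 to 0.0051 (0.046 with quantile normalization) and in the mTORi effect 0.067 to 0.12 (0.018). The gap between the subunit medians moved from -0.23 to -0.30 with means and -0.18 with quantile normalization between the lines, and to 0.0074 and 0.029 with the combination. RPSA (0.022) and RPS2 (0.041) under mTORi turned positive with an equal median, and RPS15 under BETp ran from -0.00073 to 0.075 with 1 library left out. Of the other values of single members, 715 kept their call and direction, 272 were no longer called and 4 became called. With 1 library per line and treatment and no depth, counting error could not be given.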
